A study of Mus musculus with 14 samples.

Results

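Bile acids are made in the liver from cholesterol, and 10 genes of their synthesis, conjugation, transport and control are described here: Cyp7a1, Cyp8b1, Cyp27a1, Cyp7b1, Slc27a5, Baat, Nr0b2, Nr1h4, Slc10a1 and Abcb11. They were taken by name, with earlier results of these data known, from the 22180 genes that the arrays measured through a probe set with exactly 1 gene symbol. All 10 were measured, each by 1 probe set. The samples were livers of male C57BL/6J mice, an inbred strain, with 7 mice in the sleep-deprived group (mice 1, 2, 3, 5, 6, 10 and 13) and 7 in the control group (mice 4, 7, 8, 9, 11, 12 and 14). The sleep-deprived group had been kept awake for a single period of 6 h, per the study's title. The study's design names 3 ways of disturbing sleep (gentle handling, cage changing or a platform in water), and the labels do not say which one preceded these arrays, nor the mice's age, the time of day or whether food was at hand. Each numbered liver sample is taken as 1 mouse. Nothing in the labels states this, so the p-values measure the spread between these samples.

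In the classical pathway, Cyp7a1 encodes the enzyme that starts and limits the conversion of cholesterol to bile acids, and Cyp8b1 adds the hydroxyl group that turns the product into cholic acid. In the alternative pathway, the mitochondrial enzyme Cyp27a1 oxidises the sterol side chain and Cyp7b1 hydroxylates the resulting oxysterols. Slc27a5 couples bile acids to coenzyme A and Baat then joins them to taurine, the usual conjugate in mice. Slc10a1 takes conjugated bile acids up from the portal blood and Abcb11 pumps them into bile. Nr1h4 encodes FXR, the nuclear receptor that binds bile acids, and Nr0b2 encodes SHP, a co-repressor that FXR induces and that acts on Cyp7a1 and Cyp8b1.

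Values were log2 expression made by RMA, a method that corrects background, equalises the arrays' distributions and sums up each probe set. Array medians lay between 3.443 and 3.491, and 7 arrays per group bound how precisely a value is known. Hepatocyte genes stood at the top of the range, as in Alb at 13.31 in both groups and Ttr at 12.97 in sleep-deprived and 12.98 in control mice. Of 9 hepatocyte markers measured, 2 were higher (Apoa1 and Cps1) and 0 lower by limma at an adjusted p under 0.05, the threshold of every call below, and their mean level per mouse ranged from 11.91 to 11.96 in sleep-deprived and from 11.88 to 11.98 in control mice. Of 9 markers of the pericentral zone, the hepatocytes around the central vein, 0 were higher and 2 lower (Lgr5 and Rgn), and of 8 periportal markers 1 was higher (Pck1) and 1 lower (Hal). The counts of higher and lower genes were 1 and 0 of 8 for cholangiocytes (Sox9), 1 and 0 of 9 for Kupffer cells (Cd163), 2 and 0 of 9 for sinusoidal endothelium (Lyve1 and Oit3), 0 and 0 of 9 for stellate cells, 0 and 1 of 7 for blood cells (Cd79a) and 0 and 0 of 7 for pancreas and gut. For comparison, 8.5% of all genes passed, and 25.6% of the 2486 genes at least as bright as Nr0b2, the dimmest of the 10 bile acid genes. The calls of Apoa1, Cps1, Pck1 and Sox9 were lost in 4, 10, 9 and 7 (in that order) of 14 fits, each without 1 mouse. In RNA of whole liver, fewer cells of a type and less RNA per cell cannot be told apart.

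Of the 10 bile acid genes, Cyp7a1 and Slc27a5 were lower after sleep deprivation and the other 8 did not pass the test. Cyp7a1 fell to 0.658 and Slc27a5 to 0.86 times the control level. The count was thus 2 of 10, with 0 higher, where 8.5% of all genes passed in either direction, 3.88% as higher and 4.62% as lower. All 10 genes were bright, and among the 2486 genes at least as bright as Nr0b2, the dimmest of them, 25.6% passed, a share close to 2 of 10. The median log2 difference, sleep-deprived minus control, was -0.126 over the 10 genes and -0.005 over all genes, with 6 genes below 0 and 4 above. At an unadjusted p under 0.05 the count was 6 of 10, where 19.4% of all genes and 42.8% of those at least as bright as Nr0b2 lay under it. The count was 1 with a robust variance estimate, where Cyp7a1 had a limma adjusted p of 0.0617. It was also 1 when all probe sets of the array were tested, where that of Cyp7a1 was 0.0593.

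**Figure D1:**
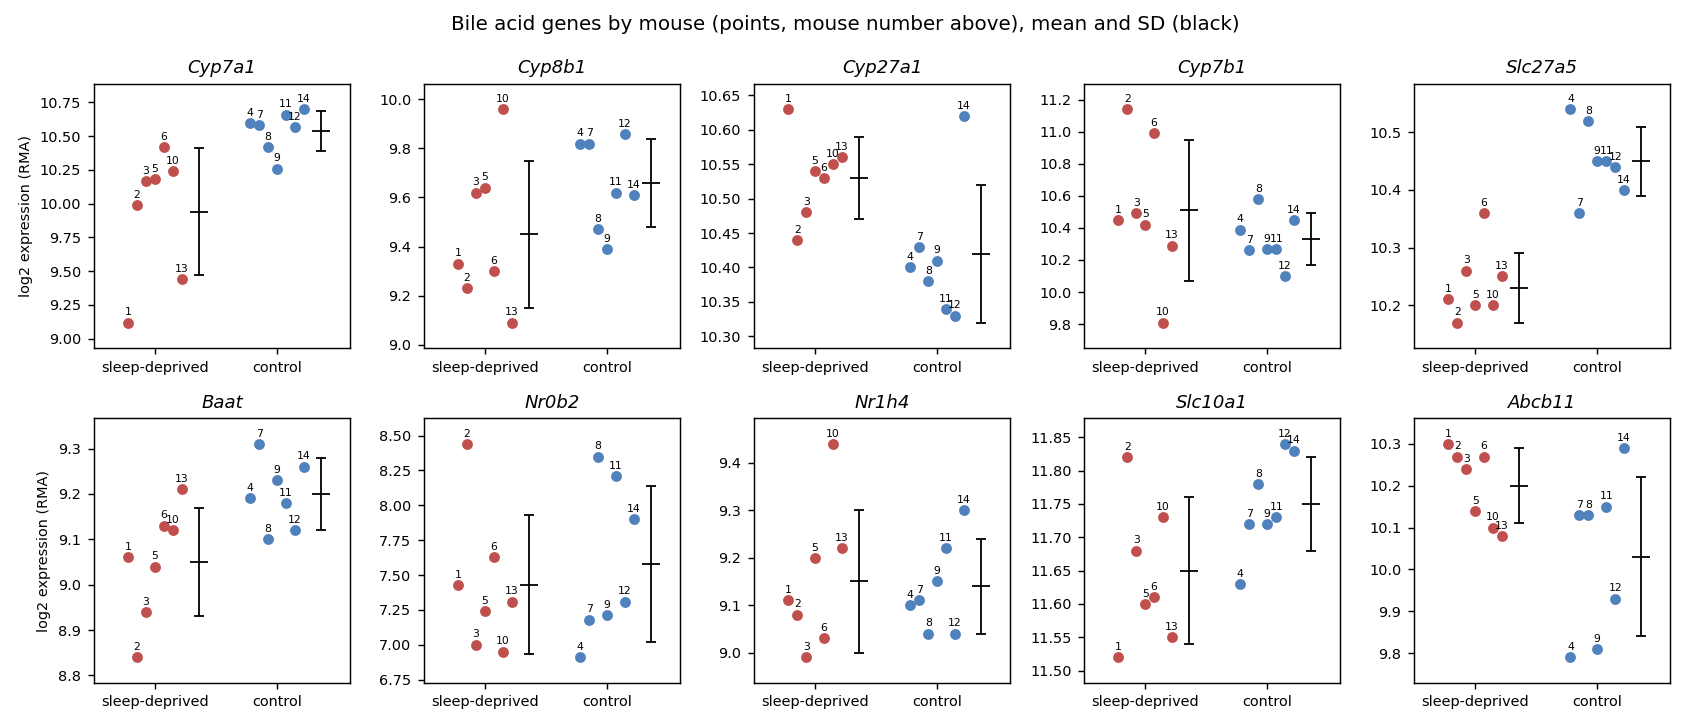
Log2 expression (RMA, vertical axis, a separate scale for each gene) of the 10 bile acid genes in the 7 sleep-deprived mice (red, left) and the 7 control mice (blue, right), each point a mouse with its number, and the group mean with SD in black. In Slc27a5 the groups do not overlap, in Cyp7a1 6 sleep-deprived mice lie below every control, and in Nr0b2 both groups span more than 1 log2 unit.

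Cyp7a1 (probe set 17423051) had log2 levels of 9.12 at the lowest, 10.17 at the median and 10.42 at the highest in sleep-deprived mice, against 10.26, 10.58 and 10.70 in controls. Of the sleep-deprived mice 6 lay below every control, and mouse 6, at 10.42, lay inside the control range. The means were 9.94 ± 0.47 in sleep-deprived and 10.54 ± 0.15 in control mice (SD, n = 7 each). This gave a log2 difference of -0.60 ± 0.152 (moderated SE, 95% interval from -0.92 to -0.29, limma adjusted p = 0.0148, exact two-sided permutation p = 0.00175). All 14 fits that left out 1 mouse kept the call, with differences from -0.68 to -0.47 and adjusted p from 0.0056 to 0.0357. The call was lost with the robust variance estimate, as above, and when all probe sets of the array were tested without reduction to genes (adjusted p = 0.0593).

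The sleep-deprived mice differed among themselves in Cyp7a1. Mouse 1 at 9.12 and mouse 13 at 9.44 stood well below mouse 2 at 9.99, and the other 4 lay between 10.17 and 10.42. Cyp7a1 is known to be transcribed mainly in pericentral hepatocytes. The mean level of the pericentral markers ranged from 8.90 to 9.12 in sleep-deprived and from 9.12 to 9.24 in control mice. Lgr5, a receptor of the Wnt pathway, was at 4.34 ± 0.32 in sleep-deprived and 5.40 ± 0.30 in control mice (SD, n = 7 each). Rgn, the other called marker, was at 11.34 ± 0.05 in sleep-deprived and 11.58 ± 0.05 in control mice. Glul, the glutamine synthetase of the same zone, was at 11.22 ± 0.05 in sleep-deprived and 11.14 ± 0.06 in control mice. Of the 9 marker differences 7 lay below 0 and 2, those of Glul and Slc1a2, above. The 9 marker differences averaged -0.16, and the 8 without Lgr5, a split chosen after seeing the data, averaged -0.05. Without Lgr5 the mean level of the markers ranged from 9.52 to 9.69 in sleep-deprived and from 9.55 to 9.74 in control mice. The part of zonal composition in the difference of Cyp7a1 was not tested.

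Cyp8b1 (probe set 17532409) had log2 levels of 9.09, 9.33 and 9.96 at the lowest, median and highest in sleep-deprived mice, against 9.39, 9.62 and 9.86 in controls. Of the sleep-deprived mice 4 lay below every control and mouse 10 above every control. The log2 difference of -0.20 ± 0.11 did not pass (95% interval from -0.43 to 0.02, limma adjusted p = 0.334). The interval reaches from below the difference of Slc27a5, given further on, to just above 0.

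The promoters of Cyp8b1 and Nr0b2 are shown because Nr5a2, the nuclear receptor LRH-1 that is known to activate both genes and that SHP represses, was lower in the sleep-deprived mice (below), and that of Akr1d1 because this enzyme of the pathway fell by about as much as Cyp7a1. The windows are RefSeq sequences (GRCm38.p6) reaching from 250 bases before to 50 after the annotated start, and were found by symbol for 6 of the 10 genes (Cyp8b1, Cyp27a1, Nr0b2, Nr1h4, Slc10a1 and Abcb11). No window was found for Cyp7a1 and Slc27a5, the called genes of the set, nor for Cyp7b1 and Baat. The motifs below thus do not cover the called genes of the set. Cyp8b1 lies at chr9:121916256-121916555 on the minus strand, Nr0b2 at chr4:133553126-133553425 on the plus strand and Akr1d1 at chr6:37529923-37530222 on the plus strand. Capitals mark the motifs found on either strand.
Cyp8b1: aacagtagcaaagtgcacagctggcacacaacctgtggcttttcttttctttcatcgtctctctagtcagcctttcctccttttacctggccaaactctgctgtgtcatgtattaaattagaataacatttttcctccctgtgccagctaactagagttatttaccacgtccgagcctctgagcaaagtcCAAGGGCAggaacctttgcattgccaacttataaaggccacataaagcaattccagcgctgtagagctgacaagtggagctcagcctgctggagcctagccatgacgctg
Nr0b2: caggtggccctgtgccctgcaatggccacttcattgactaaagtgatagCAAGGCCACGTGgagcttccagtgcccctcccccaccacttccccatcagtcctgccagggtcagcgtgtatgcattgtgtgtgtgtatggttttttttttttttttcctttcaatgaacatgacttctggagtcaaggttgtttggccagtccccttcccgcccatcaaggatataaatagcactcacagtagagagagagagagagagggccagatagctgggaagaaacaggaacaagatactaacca
Akr1d1: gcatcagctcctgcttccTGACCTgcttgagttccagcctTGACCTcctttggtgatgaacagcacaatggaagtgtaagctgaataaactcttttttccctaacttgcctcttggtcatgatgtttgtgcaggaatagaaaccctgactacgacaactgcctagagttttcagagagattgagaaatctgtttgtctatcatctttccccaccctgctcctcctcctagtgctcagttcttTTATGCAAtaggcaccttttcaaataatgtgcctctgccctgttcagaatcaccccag

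The LRH-1 motif CAAGGNCA occurred in Cyp8b1, at position -60 from the transcription start, and in Nr0b2, at position -201. In all 32851 windows of the table its share was 6.71%. In Nr0b2 its last bases are also the first of the E-box CACGTG, the motif bound by the clock activators, which 7.15% of all windows hold. Akr1d1 held 2 copies of TGACCT, which is the nuclear receptor hexamer AGGTCA on the opposite strand, and a D-box TTATGNAA just before the start. AGGTCA was found in 16.3% and the D-box, the motif of Dbp and related factors, in 3.38% of all windows. Among the other genes of the set, AGGTCA was found in Nr1h4, Abcb11 and 1 of 2 windows of Slc10a1, and the D-box in Cyp27a1 and that same window of Slc10a1. Some called pathway genes outside the set were scanned too. Of these, Nr5a2 held AGGTCA in 1 of 2 windows and Osgin1 held a D-box at position -87. Hsd3b7, Acox2 and Abcd3 held none of the motifs. The FXR motif, an inverted repeat of AGGTCA with 1 base between, and the direct repeat with 1 base between were in no window of the 6 genes, and in 0.00913% and 0.0396% of all windows. A motif match describes letters and does not show binding.

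Neither gene of the alternative pathway passed the test. Cyp27a1 (probe set 17214368) had log2 levels of 10.44, 10.54 and 10.63 at the lowest, median and highest in sleep-deprived mice, against 10.33, 10.40 and 10.62 in controls. All 7 sleep-deprived mice lay above the control mean, but control mouse 14, at 10.62, lay above 6 of them. The log2 difference was 0.12 ± 0.0444 (limma, adjusted p = 0.131). Without control mouse 14 it was 0.15 and passed (limma, adjusted p = 0.0177), and it did not in the other 13 fits that left out 1 mouse.

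Cyp7b1 (probe set 17404245) spread widely after sleep deprivation, with log2 levels of 9.81, 10.45 and 11.14 at the lowest, median and highest, against 10.10, 10.27 and 10.58 in controls. Mice 2 and 6 lay above every control and mouse 10 below every control. Its SD was 0.44 in sleep-deprived and 0.16 in control mice, and the log2 difference of 0.18 ± 0.143 did not pass (95% interval from -0.12 to 0.48, limma adjusted p = 0.571). The difference depended on single mice, at 0.08 without mouse 2, 0.10 without mouse 6 and 0.30 without mouse 10, and it was 0.04 with the sample number as a covariate. Whether the SDs differ was not tested.

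Of the 2 conjugating enzymes, Slc27a5 fell by a small and even amount. Slc27a5 (probe set 17486589) had log2 levels of 10.17, 10.21 and 10.36 at the lowest, median and highest in sleep-deprived mice, against 10.36, 10.45 and 10.54 in controls. The groups did not overlap, although by little, since the highest sleep-deprived mouse was at 10.358 and the lowest control at 10.363. Groups without overlap were found at 3.13% of all genes, at 11.3% of those at least as bright as Nr0b2 and at 1 of the 10 bile acid genes. The means of Slc27a5 were 10.23 ± 0.06 in sleep-deprived and 10.45 ± 0.06 in control mice (SD, n = 7 each). The log2 difference was -0.22 ± 0.0396 (95% interval from -0.30 to -0.13, limma adjusted p = 0.00115, exact two-sided permutation p = 0.000583, the smallest that 7 against 7 can give). The call held in all 14 fits that left out 1 mouse and in all 9 other settings.

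Baat (probe set 17425221) had log2 levels of 8.84, 9.06 and 9.21 at the lowest, median and highest in sleep-deprived mice, against 9.10, 9.19 and 9.31 in controls. Of the sleep-deprived mice 4 lay below every control, mouse 2 the lowest. The log2 difference of -0.15 ± 0.0548 did not pass (95% interval from -0.27 to -0.04, limma adjusted p = 0.102).

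The 2 transporters of the set had differences of opposite sign, and neither passed. The uptake carrier Slc10a1 (probe set 17282300) had log2 levels of 11.52, 11.61 and 11.82 at the lowest, median and highest in sleep-deprived mice, against 11.63, 11.73 and 11.84 in controls, a difference of -0.10 ± 0.0467 (limma, adjusted p = 0.217). The export pump Abcb11 (probe set 17386177) had 10.08, 10.24 and 10.30 in sleep-deprived mice, against 9.79, 10.13 and 10.29 in controls, a difference of 0.17 ± 0.07 (limma, adjusted p = 0.181). In Abcb11 all 7 sleep-deprived mice lay above the control mean, and its lowest values were those of control mice 4 and 9.

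The receptor gene Nr1h4 (probe set 17244070) was at nearly the same level in both groups, with means of 9.15 ± 0.15 in sleep-deprived and 9.14 ± 0.10 in control mice (SD, n = 7 each). Its log2 difference was 0.016 ± 0.0632 (95% interval from -0.12 to 0.15, limma adjusted p = 0.938). Differences beyond 0.15 in either direction thus lay outside the interval.

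Nr0b2 (probe set 17419622), the target of FXR that represses bile acid synthesis, varied more between mice than any other gene of the set. Its log2 levels were 6.95, 7.31 and 8.44 at the lowest, median and highest in sleep-deprived mice, against 6.91, 7.31 and 8.35 in controls. The highest mice were 2 in the sleep-deprived and 8 and 11 in the control group. Its log2 difference of -0.15 ± 0.229 has a 95% interval from -0.63 to 0.33, which reaches past the difference of Cyp7a1 (limma, adjusted p = 0.815). It was -0.32 when sleep-deprived mouse 2 was left out and -0.26 when control mouse 4 was. It was closer to 0 without sleep-deprived mouse 3 (-0.08) or 10 (-0.07) and without control mouse 8 (-0.02), 11 (-0.04) or 14 (-0.09).

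**Figure D2:**
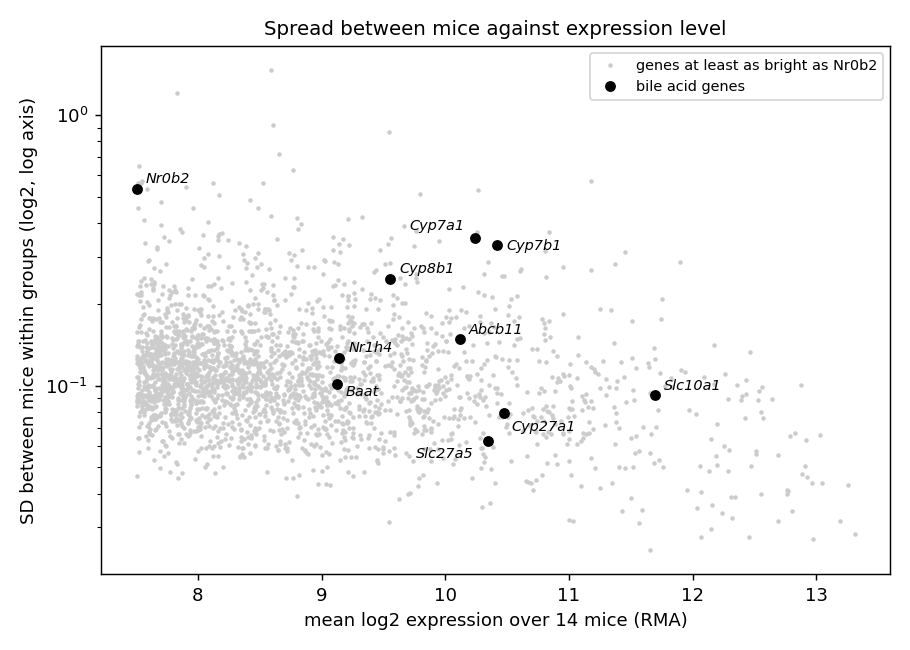
SD between mice within groups (log2 units, vertical log axis) against the mean log2 expression over 14 mice (horizontal axis) for the 2486 genes at least as bright as Nr0b2 (grey) and the 10 bile acid genes (black, named). Nr0b2, Cyp7a1, Cyp7b1 and Cyp8b1 lie near the top of the cloud, while Slc27a5 and Cyp27a1 lie low in it.

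The genes of the set differed in how far mice of 1 group lay apart. The SD within groups was 0.535 in Nr0b2, 0.353 in Cyp7a1, 0.332 in Cyp7b1 and 0.249 in Cyp8b1, against a median of 0.105 over the 2486 bright genes. These SDs lay above those of 99.4%, 98.1%, 97.7% and 94.9% of the bright genes, in that order of genes. Slc27a5, at 0.0623, lay above 8.57% and Cyp27a1, at 0.0792, above 21.8% of them. A log2 difference of -0.22 passed the test in Slc27a5, while one of -0.20 did not pass in Cyp8b1.

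Pairs of genes joined by regulation or by consecutive steps were compared within each group, 6 pairs in 2 groups, and none of the 12 correlations passed after Benjamini-Hochberg adjustment (7 mice each, smallest adjusted p = 0.338 for Pearson's r and 0.529 for Spearman's rho, by exact two-sided permutation). Nr0b2 and Cyp8b1 had r = -0.62 in sleep-deprived mice (exact permutation p = 0.131, adjusted p = 0.434) and r = -0.51 in control mice (exact permutation p = 0.233, adjusted p = 0.434). Their Spearman's rho was -0.75 in sleep-deprived and -0.39 in control mice (exact permutation p = 0.0663 and 0.396). Without the 2 mice farthest from the median of Nr0b2, r was -0.57 in sleep-deprived and -0.29 in control mice. Nr0b2 and Cyp7a1 had r = -0.06 in sleep-deprived and 0.14 in control mice (exact permutation p = 0.914 and 0.763), with rho at -0.25 and 0.04 (exact permutation p = 0.595 and 0.963), and r was -0.06 in sleep-deprived and 0.37 in control mice without the 2 farthest.

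Nr1h4 and Abcb11 had r = -0.77 in sleep-deprived mice (exact permutation p = 0.0282, adjusted p = 0.338) with rho = -0.64 (exact permutation p = 0.139), and r = -0.88 without the 2 mice farthest from the median of Nr1h4. In control mice r was 0.51 (exact permutation p = 0.252) and rho 0.46 (exact permutation p = 0.302), and r was -0.51 without the 2 farthest, so that the sign there rests on 2 mice. Cyp7a1 and Cyp8b1 had r = 0.51 in sleep-deprived and 0.63 in control mice (exact permutation p = 0.253 and 0.13), with rho at 0.46 and 0.29 (exact permutation p = 0.302 and 0.556). Without the 2 mice farthest from the median of Cyp7a1, r was 0.13 in sleep-deprived and -0.97 in control mice, so that both values rest on those mice. Nr1h4 with Nr0b2 had r = -0.41 and 0.27 (exact permutation p = 0.337 and 0.548) and rho = -0.39 and 0.00 (exact permutation p = 0.396 and 1.0) in sleep-deprived and control mice, and r = -0.61 and -0.64 without the 2 farthest, a change of sign in control mice. Cyp27a1 with Cyp7b1 had r = -0.49 and 0.42 (exact permutation p = 0.242 and 0.353) and rho = -0.71 and 0.36 (exact permutation p = 0.0881 and 0.444), and r = -0.33 and -0.21 without the 2 farthest, again a change of sign in control mice.

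**Figure D3:**
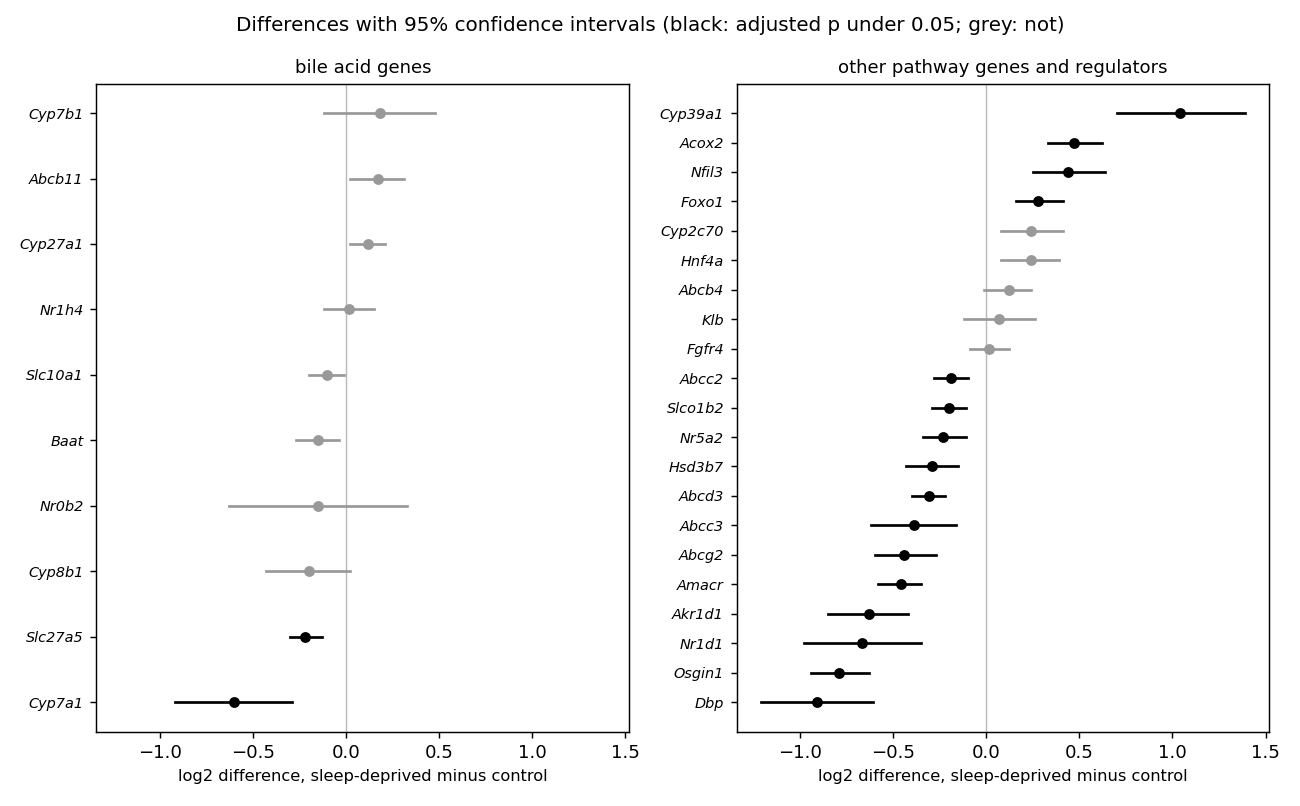
Log2 difference, sleep-deprived minus control (horizontal axis), with its 95% confidence interval, of the 10 bile acid genes (left) and of 21 other pathway genes and regulators (right), in black where the adjusted p was under 0.05 and in grey where it was not. Of the bile acid genes 2 are black, both below 0, and of the others 4 are black above 0 and 12 below 0. The 21 others include every called gene among the 46 measured genes of the pathway lists, so their share in black follows from that choice. Of the 46, 34.8% passed, against 8.5% of all genes and 25.6% of those at least as bright as Nr0b2.

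The rest of the pathway was taken from lists of other synthesis enzymes, other carriers, regulators and further targets of FXR, which share some genes and hold 46 measured genes beside the 10. Of these 46 genes 4 were higher and 12 lower (34.8% in all), where 8.5% of all genes and 25.6% of those at least as bright as Nr0b2 passed. Of the 46, 31 were at least as bright as Nr0b2, and 15 of these passed. The lists were drawn up with results of these data known, so these counts describe them and test nothing. Of 13 other enzymes of synthesis, 2 were higher and 4 lower, with a median log2 difference of -0.072.

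Akr1d1 and Hsd3b7, which modify the steroid ring after Cyp7a1 has acted, both fell, while the ring hydroxylase Cyp8b1 did not pass, as given above. Akr1d1, which reduces the steroid ring to its bile acid form, had log2 levels of 8.39, 8.83 and 9.11 at the lowest, median and highest in sleep-deprived mice, against 9.06, 9.47 and 9.55 in controls, a difference of -0.63 ± 0.104 (limma, adjusted p = 0.000442). Mouse 10 was the 1 sleep-deprived mouse not below every control, of which mouse 14 was the lowest. Hsd3b7, which oxidises the ring before Akr1d1 acts, had 8.84, 9.17 and 9.33 in sleep-deprived mice, against 9.28, 9.39 and 9.60 in controls, a difference of -0.29 ± 0.0678 (limma, adjusted p = 0.00822).

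Of the genes of the peroxisomal steps that shorten the side chain, Amacr and Abcd3 fell, Acox2 rose and Hsd17b4 and Scp2 did not pass. Amacr, the racemase that prepares the side chain, had 9.25, 9.38 and 9.53 at the lowest, median and highest in sleep-deprived mice, against 9.71, 9.87 and 9.94 in controls, a difference of -0.46 ± 0.0544 (limma, adjusted p = 1.39e-05). Abcd3, a transporter that brings bile acid precursors into peroxisomes, averaged 10.62 ± 0.08 in sleep-deprived and 10.93 ± 0.07 in control mice (SD, n = 7 each), a difference of -0.31 ± 0.043 (limma, adjusted p = 7.96e-05). Acox2, the oxidase of branched side chains, had 9.35, 9.46 and 9.69 in sleep-deprived mice, against 8.71, 9.04 and 9.20 in controls, a difference of 0.47 ± 0.0691 (limma, adjusted p = 0.000137). In all 3 genes, named because they were called, the groups did not overlap, which held for 3.13% of all genes and 11.3% of those at least as bright as Nr0b2. Hsd17b4 and Scp2, which act after Acox2 in the same chain of steps and were added to the named genes after their values were seen, had differences of 0.031 and 0.044 (limma, adjusted p = 0.773 and 0.481).

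Cyp39a1, which hydroxylates an oxysterol made largely in the brain and so feeds a minor route to bile acids, had the largest difference of the 4 genes that rose. It had log2 levels of 7.66, 8.49 and 9.00 at the lowest, median and highest in sleep-deprived mice, against 6.97, 7.38 and 7.70 in controls. The difference was 1.04 ± 0.164 or 2.06-fold (limma, adjusted p = 0.000294), and mouse 2 was the 1 sleep-deprived mouse inside the control range. Cyp2c70, which makes the muricholic acids of mice, was at 11.87 ± 0.22 in sleep-deprived and 11.62 ± 0.12 in control mice (SD, n = 7 each), a difference of 0.24 ± 0.0791 that did not pass (limma, adjusted p = 0.0653). It passed without sleep-deprived mouse 10 (limma, adjusted p = 0.00832) or control mouse 8 (0.0426), and among the brighter genes alone (0.0417).

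**Figure D4:**
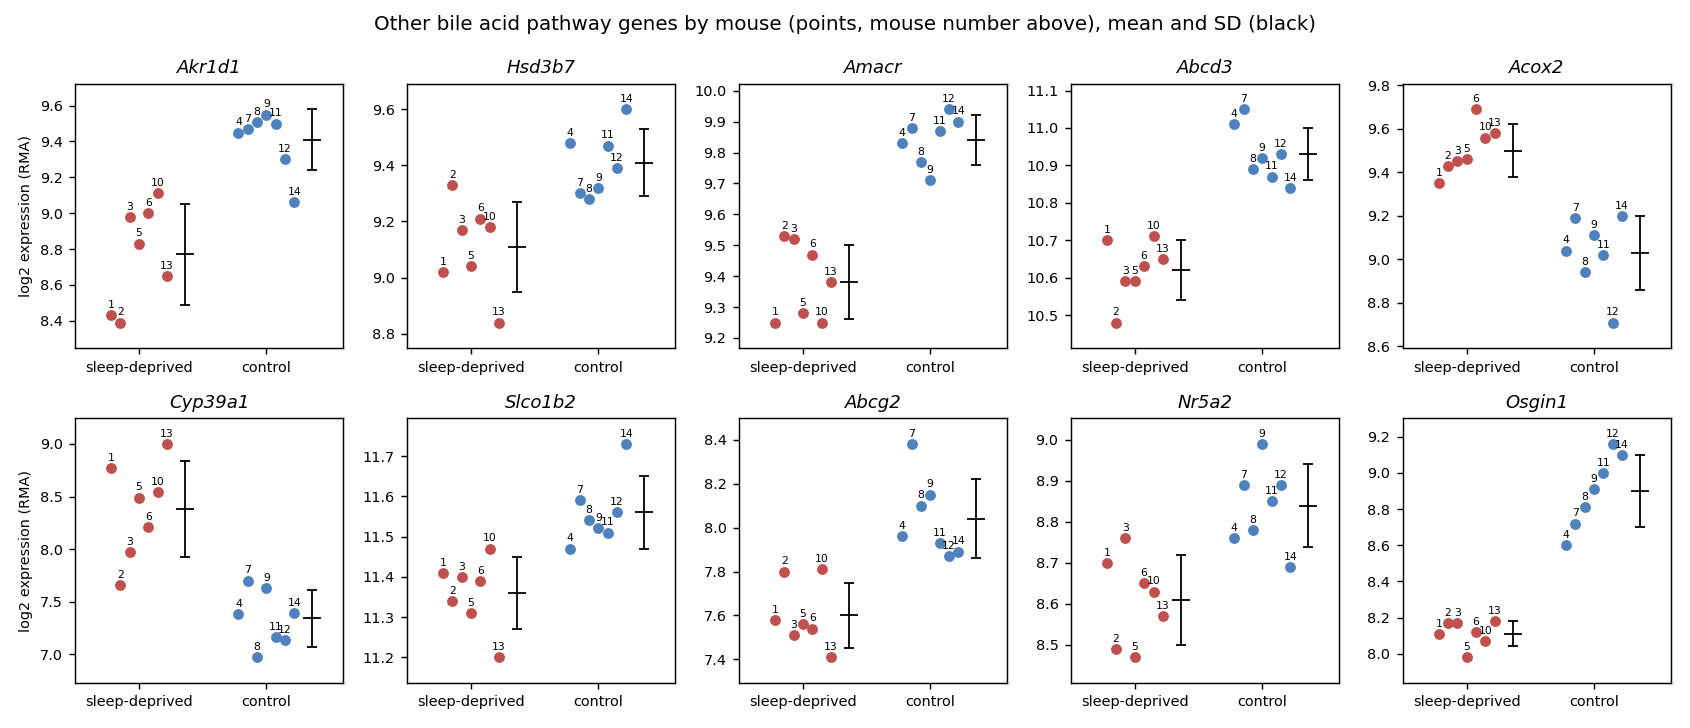
Log2 expression (RMA, vertical axis, a separate scale for each gene) of 10 further genes of the pathway in the 7 sleep-deprived mice (red, left) and the 7 control mice (blue, right), each point a mouse with its number, and the group mean with SD in black. The groups do not overlap in Amacr, Abcd3, Acox2, Slco1b2, Abcg2 and Osgin1. All 10 genes shown are called ones, so this count describes a selected set. Groups without overlap were found at 3.13% of all genes and at 11.3% of those at least as bright as Nr0b2.

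Among 13 other carriers of bile acids and bile, 0 were higher and 4 lower, with a median log2 difference of -0.14. Over all genes 3.88% were higher and 4.62% lower, with a median of -0.005. Among genes at least as bright as Nr0b2, 25.6% passed in either direction. Slco1b2, an uptake carrier of the sinusoidal membrane for unconjugated bile acids, averaged 11.36 ± 0.09 in sleep-deprived and 11.56 ± 0.09 in control mice (SD, n = 7 each), a difference of -0.20 ± 0.0453 (limma, adjusted p = 0.00699). Abcc2, the canalicular pump for conjugated organic anions, averaged 11.01 ± 0.09 in sleep-deprived and 11.20 ± 0.07 in control mice, a difference of -0.19 ± 0.0439 (limma, adjusted p = 0.00802). Abcg2, another canalicular pump, averaged 7.60 ± 0.15 in sleep-deprived and 8.04 ± 0.18 in control mice, a difference of -0.44 ± 0.0804 (limma, adjusted p = 0.0013).

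The call of Abcc3, a pump that returns bile acids to blood, was less firm. It averaged 8.93 ± 0.32 in sleep-deprived and 9.33 ± 0.13 in control mice (SD, n = 7 each), a difference of -0.39 ± 0.109 (limma, adjusted p = 0.0282). The call was lost without sleep-deprived mouse 1, 2 or 13 or control mouse 4, 9 or 14, with adjusted p up to 0.0677, while without sleep-deprived mouse 10 it was 0.000618. It was lost as well with the sample number as a covariate (adjusted p = 0.105), with robust estimation (0.052) and with all probe sets tested (0.0905). Abcb4, the phospholipid flippase of the canaliculus and a target of FXR, was at 9.76 ± 0.11 in sleep-deprived and 9.65 ± 0.12 in control mice and did not pass (limma, adjusted p = 0.292).

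Of 16 regulators of the pathway 2 were higher and 3 lower, with a median log2 difference of 0.081. The shares that passed were 8.5% of all genes and 25.6% of those at least as bright as Nr0b2. Nr5a2, encoding LRH-1, had log2 levels of 8.47, 8.63 and 8.76 at the lowest, median and highest in sleep-deprived mice, against 8.69, 8.85 and 8.99 in controls. Its difference was -0.23 ± 0.0562 (limma, adjusted p = 0.0136), with 5 of 7 sleep-deprived mice below every control. Hnf4a, a hepatocyte transcription factor that activates Cyp7a1 and Cyp8b1, was at 10.51 ± 0.21 in sleep-deprived and 10.27 ± 0.11 in control mice (SD, n = 7 each) and did not pass (limma, adjusted p = 0.0604). It passed without sleep-deprived mouse 2 (0.00891) or 3 (0.0356), with the sample number as a covariate (0.0239), after quantile normalization again (0.0259) and among the brighter genes alone (0.0372).

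Fgfr4 and Klb, the receptor and co-receptor through which the gut hormone FGF15 represses Cyp7a1 in mice, were at 7.24 ± 0.09 and 7.94 ± 0.23 in sleep-deprived mice, against 7.22 ± 0.02 and 7.87 ± 0.14 in controls (SD, n = 7 each), and neither passed, with log2 differences of 0.015 ± 0.0493 and 0.069 ± 0.0904 (limma, adjusted p = 0.926 and 0.773). The clock outputs Dbp and Nr1d1, both known to act on the daily rhythm of Cyp7a1, averaged 9.08 ± 0.43 and 7.91 ± 0.33 in sleep-deprived mice, against 9.99 ± 0.18 and 8.57 ± 0.36 in controls (SD, n = 7 each), and both fell (limma, adjusted p = 0.000297 and 0.00679). The part of clock phase in the lower level of Cyp7a1 was not tested. The repressor Nfil3, which binds the D-box, and the insulin-regulated factor Foxo1 averaged 6.87 ± 0.24 and 8.63 ± 0.09 in sleep-deprived mice, against 6.42 ± 0.14 and 8.34 ± 0.13 in controls, and rose by 0.44 ± 0.094 and 0.28 ± 0.0597 (limma, adjusted p = 0.00412 and 0.00426). Foxo1 also had a dimmer probe set, with a mean level of 6.37, whose own difference is not given here. The call of Foxo1 held in all 9 other settings, including that with probe sets averaged. Without sleep-deprived mouse 2 the count of higher regulators was 4, by Hnf4a and by the xenobiotic receptor Nr1i2, named after its value was seen (limma, adjusted p = 0.0277 without that mouse and 0.162 with all).

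Of 7 measured targets of FXR beside Nr0b2, Abcb11 and Baat, 0 were higher and 1 lower, with a median log2 difference of -0.008. The lower gene of the list was Osgin1, which FXR and also oxidative stress induce. It had log2 levels of 7.98, 8.12 and 8.18 at the lowest, median and highest in sleep-deprived mice, against 8.60, 8.91 and 9.16 in controls, a difference of -0.79 ± 0.0736 (limma, adjusted p = 1.18e-06). The groups of Osgin1 were far apart, while those of Abcb4, Nr0b2, Abcb11 and Baat overlapped. Slc27a5 and Abcc2, which are not on this list, were both lower, as given above.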

How the data were processed

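RNA of 14 mouse livers (100 ng each) was hybridised to Affymetrix arrays with the WT PLUS labelling kit, per the labels' protocols. The authors deposited log2 values of expression, made by RMA per the submitters' processing notes. Its version and software were not given in the sources used here. Of 41345 probe sets, 23521 had 1 gene symbol in the platform annotation, 1814 had several and 16010 had no entry there. Symbols were updated by Entrez ID, and the probe set with the highest mean stood for its gene. RMA compresses the differences of dim genes.

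Groups came from the titles. Sleep-deprived minus control was fitted across 22180 genes in limma 3.58.1 (R 4.3.3; eBayes with an intensity trend, two-sided) and adjusted by Benjamini-Hochberg, at a threshold of 0.05. In simulated data, 87 of 100 genes changed by 0.5 and 99 of 100 changed by 1 on the log2 scale were recovered, with 8 false calls. The simulated noise was normal and independent between genes, with each gene's own SD, and the changed genes were picked at random from all genes. These shares thus do not carry over to genes of wide spread, such as Nr0b2.

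The 10 genes, the lists and the tests were chosen with earlier results of these data known. Named beside the 10 were all called genes of the pathway lists and, whatever their result, Hsd3b7, Akr1d1, Cyp2c70, Nr5a2, Hnf4a, Fgfr4, Klb, Abcc2, Abcb4 and Slco1b2. Alternatives were eBayes without trend or robust, array weights, brighter genes alone, probe sets averaged or all tested, centred arrays, renewed quantile normalization, the title's sample number as a covariate, and each mouse left out in turn.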

Additional observations from a re-analysis of the deposited data

Results flagged for a closer look

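Control mouse 14 stood apart in Cyp27a1, at a log2 level of 10.62 where the next control was at 10.43, a gap of 0.661 of the whole range of the group. It was the 1 such case among 62 groups examined (31 genes in 2 groups), where chance alone sets a mouse apart in about 1 in 20 groups.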

How the results depend on the processing

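The 10 genes were refitted under 230 combinations of gene and alternative, of which 225 kept direction and side of the threshold. Cyp7a1 lost its call in 2 (adjusted p = 0.0617 with robust estimation and 0.0593 with all probe sets tested, which adjusts over more features) and Cyp27a1 gained one in 1, without control mouse 14. In 2 others Nr1h4, which was close to 0, changed sign, its difference ranging from -0.03 to 0.04 over the fits that left out 1 mouse. The count of called genes was 1 of 10 with robust estimation, 1 of 10 with all probe sets tested and 2 to 3 when a mouse was left out. The count of higher regulators was 2 to 4 when a mouse was left out, and over all genes the calls numbered 1541 to 1893. Centring the arrays shifted the median difference of all genes by 0.011. Precision is set by 7 arrays per group, and signal over background is unknown, since the table holds no detection calls. No paired analysis was possible because the groups share no sample number. The planned permutation test adjusted over the 10 genes was not run as such, since the genes were chosen with results known, and its unadjusted exact p is given for the 2 called genes.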

Other observations

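The deviations of each mouse from its group mean were compared between Cyp7a1 and all other genes, as a description over 14 mice that share arrays and normalization. The SD of Cyp7a1 was 0.47 in sleep-deprived and 0.15 in control mice. The values below thus rest mostly on the sleep-deprived group, above all on its mice 1 (9.12) and 13 (9.44). The highest Pearson correlations outside the lists, picked as the extremes of all genes, were those of Mettl15 (0.91), Mgmt (0.89), Sult1b1 (0.87), Adsl (0.86) and AI463170 (0.86), and the lowest those of Adam33 (-0.90), Shd (-0.86), Dctpp1 (-0.82), Diaph1 (-0.81) and A530058N18Rik (-0.81). Of these 10, Mgmt was lower after sleep deprivation (log2 difference -0.34, limma adjusted p = 0.0112) and the other 9 did not pass. Among the pathway genes named here the highest value was that of Fgfr4 (0.67), which did not pass the test (log2 difference 0.015), followed by 0.62 for Hsd3b7. The values were 0.51 for Cyp8b1, 0.50 for Akr1d1 and -0.50 for Cyp39a1, and 0.16 for Slc27a5 and 0.00 for Nr0b2.

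Single mice combined extremes, in genes picked after the values of all named genes were seen, so this is a description alone. Sleep-deprived mice 1 and 13 had the lowest Cyp7a1 (9.12 and 9.44), the lowest Hsd3b7 (9.02 and 8.84), the highest Cyp39a1 (8.77 and 9.00) and the lowest Slc10a1 (11.52 and 11.55) among the sleep-deprived mice. Sleep-deprived mouse 2 had the highest Nr0b2 (8.44) and Cyp7b1 (11.14) of all mice, and the lowest Slc27a5 (10.17), Baat (8.84), Akr1d1 (8.39) and Abcd3 (10.48). Other mice were extreme in several genes too. Among the sleep-deprived mice, mouse 10 had the highest Cyp8b1 (9.96) and Akr1d1 (9.11) and the lowest Cyp7b1 (9.81).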
